A study of Homo sapiens with 24 samples.

Results

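Lipid droplet turnover was described here through 10 genes: the lipase inhibitors G0S2 and HILPDA, the triglyceride lipase PNPLA2 and its coactivator ABHD5, the droplet coat proteins PLIN2 and PLIN3, the lipins LPIN1, LPIN2 and LPIN3, and the triglyceride-synthesizing enzyme DGAT1. They were found by their symbols among the 30276 features of a gene expression table of CD18/HPAF cells, where each had 1 feature. The set was selected on the pooled expression values of untreated and ISOX-treated cells and on their ratio, so these values are given as a description, with no test. CD18/HPAF is an established human pancreatic adenocarcinoma cell line, grown in DMEM with FBS. ISOX blocks histone deacetylases, HDAC6 above all. Of 24 samples of this line, 12 were exposed to ISOX at 1 µM for 48 h and 12 were left untreated, and the labels name no vehicle for the latter. In each group the titles combine a first number with 3 values and a second with 4, and neither their meaning nor whether the samples came from separate cultures is stated, so 12 need not be 12 independent replicates.

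The table holds 1 FPKM value (fragments counted per kilobase of transcript and divided by the depth of mapped fragments) for each feature and group, pooled by the authors over the samples. A pooled value has no SD and no n, the depth behind it is unknown, and no difference below could be set against the spread between replicates. A feature was counted as higher or lower with ISOX where the ratio of the 2 values reached 2-fold, among the 11915 features with a mean of both values of at least 1 FPKM and neither value at 0. The median of these features was 1.16-fold higher with ISOX, a log2 ratio of 0.21, and the FPKM of all features summed to 667281 in untreated and 873757 in ISOX-treated cells. Each log2 ratio is therefore also read against that median. In all, 356 features (2.99% of those counted) were at least 2-fold higher and 71 (0.596%) at least 2-fold lower, so 83.4% of them were higher. After subtraction of the median the numbers were 191 higher and 139 lower, or 57.9% higher. The cells carried the epithelial keratins of their origin at high levels, with KRT19 at 2970 FPKM untreated and 3325 FPKM with ISOX and KRT8 at 1579 and 1731 FPKM. Of the adipocyte markers, ADIPOQ and LEP were listed at 0 in both groups and FABP4 at 0 untreated and 0.818 FPKM with ISOX. Others were above 1 FPKM, with CIDEC at 6.70 and 10.1 FPKM and LIPE at 1.63 and 2.05 FPKM.

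Triglyceride is stored in cytoplasmic droplets that are bounded by a phospholipid monolayer and coated by perilipins. PNPLA2, also called adipose triglyceride lipase, takes the first fatty acid off stored triglyceride. ABHD5 activates it, while G0S2 and HILPDA bind and inhibit it. On the synthetic side, lipins are phosphatidate phosphatases that make diacylglycerol, and DGAT1 adds the last acyl chain to form triglyceride.

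The main feature of the set was a high level of G0S2 in ISOX-treated cells beside a lipase whose level differed little between the groups. G0S2 was listed at 10.9 FPKM without ISOX and at 69.3 FPKM with it, 6.35-fold higher, while PNPLA2 was listed at 30.8 and 33.2 FPKM. LPIN3 was the member with the lowest ratio, at 5.45 FPKM untreated and 2.80 FPKM with ISOX. PLIN2 was listed at 0 and 0.0142 FPKM. The remaining 6 genes had log2 ratios between 0.03 and 0.41. Of the 10 genes, 9 passed the filter on low values. At 2-fold, 1 of these was higher, none lower and 8 neither, where 2.99% of all counted features were higher and 0.596% lower. At a threshold of 1.5-fold, 1 of the 9 was higher and 1 lower, where 12.4% of all counted features were higher and 2.25% lower. The median log2 ratio of the 9 genes was 0.27, beside 0.21 over all counted features, and 7 of them lay within 0.2 of the latter.

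**Figure D1:**
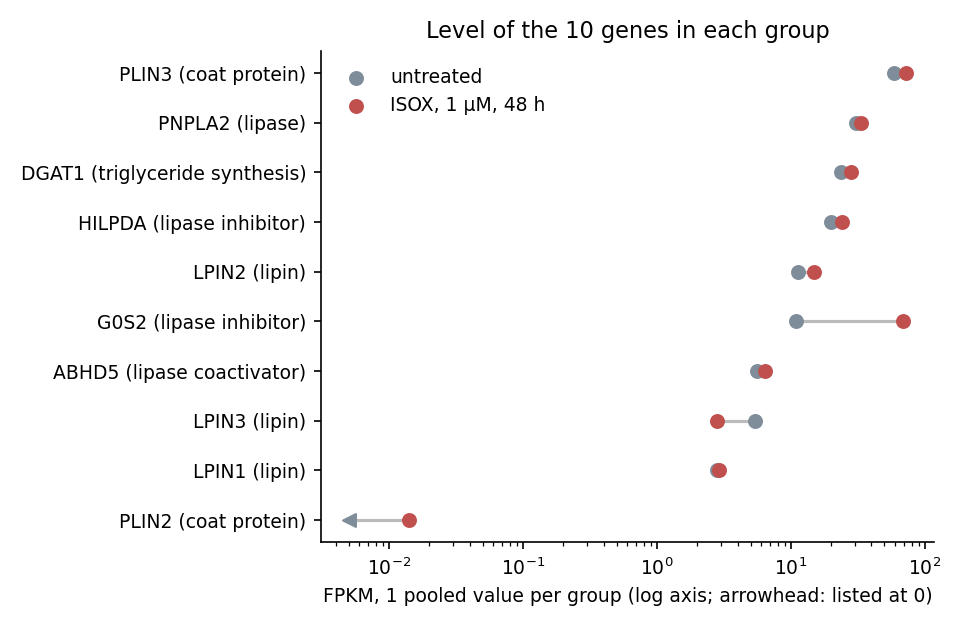
Expression level of the 10 lipid droplet genes in FPKM (log axis), with 1 pooled value for untreated cells (grey) and 1 for cells with ISOX at 1 µM for 48 h (red), ordered by the untreated level. The arrowhead marks the untreated value of PLIN2, listed at 0. The wide gap is that of G0S2, from 10.9 to 69.3 FPKM, and LPIN3 is the gene whose red point lies clearly left of the grey one.

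G0S2, a small protein first described in lymphocytes entering the cell cycle and since known as an inhibitor of PNPLA2, lies on chromosome 1 of hg38 from 209675325 to 209676390. Its log2 ratio was 2.67, or 2.46 above the median of all features, which is still 5.49-fold. It ranked 15 from the top among the 11915 features, and 99.9% of them had a lower ratio. The log2 ratio was 2.66 with 0.1 FPKM and 2.56 with 1 FPKM added to both values. Among the 2792 features with a mean level within 2-fold of that of G0S2, between 20.1 and 80.2 FPKM, 2.11% were at least 2-fold higher, and 2 features, G0S2 included, had a ratio as high as its own. In the order of levels it moved from place 6 of 10 in untreated cells to place 2 with ISOX. In a bulk culture, more RNA per cell and more cells with the RNA cannot be told apart.

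HILPDA, a droplet protein induced by hypoxia and by fatty acids, inhibits the same lipase. It lies on chromosome 7 from 128455830 to 128458418 and was listed at 19.9 FPKM untreated and 23.9 FPKM with ISOX. Its log2 ratio of 0.27 was 0.06 above the median of all features. The inhibitors thus changed places: HILPDA held 64.5% of their summed FPKM in untreated cells and 25.7% with ISOX, while G0S2 held 35.5% and 74.3%. The sum itself was 30.8 FPKM untreated and 93.3 FPKM with ISOX, 3.03-fold higher.

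The lipase gene PNPLA2 (chromosome 11, from 818901 to 825571) had a log2 ratio of 0.11, which turns to -0.10 once the median of all features is subtracted, so no direction is given for it. ABHD5, its coactivator (chromosome 3, from 43690883 to 43722725), was listed at 5.55 FPKM untreated and 6.42 FPKM with ISOX. Its log2 ratio of 0.21 was the median value itself, so the gene stood exactly in the middle of all counted features. GENCODE places exons of ANO10 over part of ABHD5 on the other strand, and ANO10 was listed at 11.9 and 13.9 FPKM.

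Ratios within a group do not depend on how the groups were scaled to each other. G0S2 was listed at 0.355 times the FPKM of PNPLA2 in untreated cells and at 2.09 times with ISOX, a 5.89-fold higher ratio. For HILPDA the ratio to PNPLA2 was 0.645 untreated and 0.721 with ISOX. ABHD5 was listed at 0.180 times the FPKM of PNPLA2 untreated and at 0.193 times with ISOX. Against its coactivator, G0S2 was listed at 1.97 times the FPKM of ABHD5 untreated and at 10.8 times with ISOX. The inhibitor exceeded the coactivator in both groups, and it was below the lipase untreated and above it with ISOX. These are ratios of RNA levels, and the proteins were not measured in these data.

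**Figure D2:**
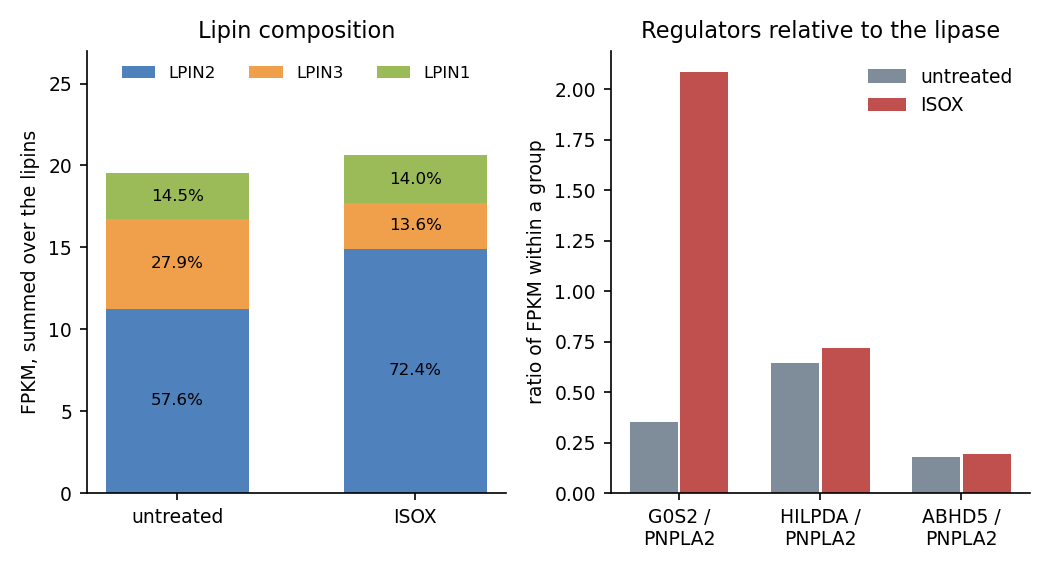
Left, FPKM of LPIN1, LPIN2 and LPIN3 stacked for untreated and ISOX-treated cells, with each gene's percent of the sum. Right, FPKM of G0S2, HILPDA and ABHD5 divided by that of PNPLA2 in the same group (grey untreated, red ISOX). The lipin sum is 19.5 and 20.6 FPKM with a smaller LPIN3 layer under ISOX, and the G0S2 bar passes from 0.355 to 2.09 while the others differ little.

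The promoters of the inhibitor and of its lipase are shown because these genes stood so far apart in their ratios. RefSeq windows on GRCh38.p14 of 250 bases before to 50 bases after a transcription start were matched for 7 of the 10 genes, with 12 windows in all, and not for HILPDA, LPIN3 and DGAT1. Printed is the part of the window ahead of the first base that the feature in the deposited table or a protein-coding exon covers, on the strand of the gene. For G0S2 this is chr1:209675162-209675324, plus strand, 163 bases that end 87 bases before the start site. For PNPLA2 it is chr11:818664-818900, plus strand, 237 bases that end 13 bases before it. Capitals mark matches, on either strand, to the motifs searched.
G0S2: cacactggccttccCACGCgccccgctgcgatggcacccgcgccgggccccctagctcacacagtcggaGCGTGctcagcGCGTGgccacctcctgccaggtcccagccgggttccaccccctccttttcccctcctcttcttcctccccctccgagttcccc
PNPLA2: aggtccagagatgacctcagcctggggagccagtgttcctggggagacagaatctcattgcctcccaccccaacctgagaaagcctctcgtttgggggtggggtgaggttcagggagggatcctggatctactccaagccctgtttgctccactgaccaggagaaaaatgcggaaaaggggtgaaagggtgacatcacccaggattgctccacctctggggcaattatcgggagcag
The capitals in the G0S2 stretch are 3 matches to GCGTG, and the PNPLA2 stretch held no match. GCGTG is a form of the core of the element bound by hypoxia-inducible factors. The other form, ACGTG, was not searched, so the counts of GCGTG are not counts of the element. The 8 motifs were searched each on its own, so that a base could count for more than 1 of them. GCGTG was in 36.5% of all 35116 windows and in 7 of the 12 windows of these genes, those of ABHD5, G0S2, LPIN1, PLIN2 and PLIN3. GGGCGG, the GC box bound by SP factors, was in 45.0% of all windows and in 9 of the 12. These were windows of ABHD5, LPIN1, LPIN2, PLIN2, PLIN3 and PNPLA2, and for PNPLA2 the match lay outside the printed stretch. TGATGNAA, the composite element of C/EBP and ATF factors, was in 3.62% of all windows, TGACGT, a part of the CRE, in 7.98% and TTGCNNCAA, a C/EBP element, in 1.98%, and none of these was in any of the 12. CACGTG was in 7.26% of all windows and in 2 of the 12, CCAAT in 34.6% and in 1, and TATAAA in 11.5% and in 1. A match is a run of letters in this window and was not measured as a binding site.

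Of the perilipins, PLIN3 was the one listed above 1 FPKM. PLIN3, which moves from the cytosol onto nascent droplets, lies on chromosome 19 from 4838332 to 4867768 and had the highest level of the set, with 59.4 FPKM untreated and 72.9 FPKM with ISOX. Its log2 ratio was 0.30, or 0.09 above the median of all features. PLIN2, the constitutive coat of droplets in many cell types (chromosome 9, from 19108649 to 19127606), was listed at 0 in untreated cells and at 0.0142 FPKM with ISOX, and no ratio is given for it. From the listed values alone it cannot be told whether this listing reflects little RNA or a failed estimate. The tissue-restricted perilipins were also low: PLIN1 was listed at 0.282 and 0.378 FPKM, PLIN4 at 0.249 and 0.715 FPKM and PLIN5 at 0.0997 and 0.0371 FPKM. As listed, PLIN3 held 98.9% of the summed perilipin FPKM in untreated cells and 98.5% with ISOX, shares that rest on the listed value of PLIN2.

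The value of PLIN2 was set beside its neighbours, a comparison added after the values were seen. HAUS6, a subunit of the augmin complex of the spindle, has its midpoint at -40.1 kb from that of PLIN2 and was listed at 4.01 FPKM untreated and 5.70 FPKM with ISOX. RRAGA, a GTPase gene of the mTORC1 pathway at -67.9 kb, was listed at 19.6 and 22.3 FPKM, and on the other side DENND4C, 184 kb away, at 2.57 and 2.71 FPKM. The ribosomal protein gene RPS6 at 260 kb was listed at 1204 and 1537 FPKM. SAXO1, ADAMTSL1 and SLC24A2, also among the neighbours, were listed at 0 in both groups. Some flanking genes thus had values above 0 and others did not. The 71 features named RPL or RPS with a number, and at most an A or X after it, were all above 0, with 123 FPKM as the lowest. Ribosomal protein genes with other names were not looked at. In the whole dataset, 11856 features were listed at 0 in both groups. What lies behind the value of PLIN2 was not tested.

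**Figure D3:**
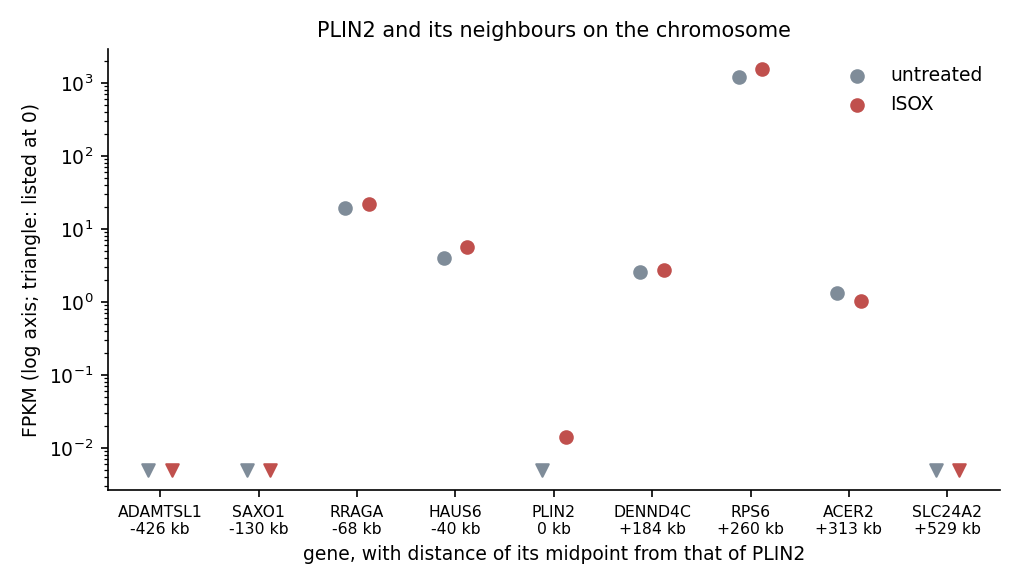
FPKM (log axis) of PLIN2 and its named neighbours in untreated (grey) and ISOX-treated (red) cells, in order along the chromosome, with the distance between midpoints in kb. Triangles mark values listed at 0. HAUS6 and RRAGA, the closest on one side, and DENND4C, the closest on the other, lie between 2.57 and 22.3 FPKM in both groups, PLIN2 at 0 and 0.0142 FPKM, and SAXO1, which is nearer than DENND4C, at 0 in both.

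The promoters are shown for PLIN3, with the highest level of the set, and for PLIN2, listed lowest with a value that may be a failed estimate. Whether these sequences bear on the levels was not tested. For PLIN2 the stretch is chr9:19127607-19127742, minus strand, 136 bases that end 114 bases before the RefSeq start site. For PLIN3 it is chr19:4867769-4867917, minus strand, 149 bases that end 101 bases before it. Capitals again mark matches to the searched motifs on either strand.
PLIN2: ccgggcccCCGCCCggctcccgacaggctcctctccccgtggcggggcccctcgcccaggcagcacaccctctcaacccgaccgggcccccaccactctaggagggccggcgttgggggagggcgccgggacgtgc
PLIN3: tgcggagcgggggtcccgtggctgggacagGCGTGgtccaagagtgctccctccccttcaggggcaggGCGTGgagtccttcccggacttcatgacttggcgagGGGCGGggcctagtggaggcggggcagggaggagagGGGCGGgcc
The PLIN2 stretch held 1 match to GGGCGG, read on the other strand. It also holds an ACGTG near its end, which is unmarked because that form was not searched. The PLIN3 stretch held 2 matches to GGGCGG and 2 to GCGTG. The GC content was 79.4% for the PLIN2 stretch and 72.5% for that of PLIN3, beside 71.2% for G0S2 and 57.0% for PNPLA2.

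The lipins differed from each other more than their sum did between the groups. Lipins convert phosphatidate to diacylglycerol, and LPIN1 also acts as a nuclear coactivator. LPIN2, the most abundant of them, lies on chromosome 18 from 2916994 to 3012073 and was listed at 11.3 FPKM untreated and 14.9 FPKM with ISOX, a log2 ratio of 0.41 that was 0.20 above the median of all features. LPIN1 (chromosome 2, from 11677579 to 11827407) was listed at 2.83 and 2.89 FPKM, and its log2 ratio of 0.03 turned to -0.18 once the median was subtracted.

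LPIN3 (chromosome 20, from 41340853 to 41366858) had a log2 ratio of -0.96, 1.95-fold lower with ISOX and so just outside the 2-fold threshold. After subtraction of the median the value was -1.17, or 2.25-fold lower. It was placed 11835 of 11915 from the top, and 0.671% of the features had a lower ratio. Among the 3701 features with a mean level within 2-fold of its own, between 2.06 and 8.24 FPKM, 2.7% were at least 1.5-fold lower, and 30, LPIN3 included, had a ratio as low. With 1 FPKM added to both values the log2 ratio was -0.76. The exons of LPIN3 share 617 bases with those of EMILIN3 on the opposite strand, and since the strand setting is not given, reads of this stretch cannot be told apart. EMILIN3 was listed at 0.927 FPKM untreated and 0.830 FPKM with ISOX.

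In the lipin pool, LPIN3 held 27.9% of the summed FPKM in untreated cells and 13.6% with ISOX. LPIN2 held 57.6% and 72.4%, and LPIN1 14.49% and 14.02%. The sum was 19.5 FPKM untreated and 20.6 FPKM with ISOX, 1.05-fold higher, so that the pool differed in composition more than in size. LPIN2 was listed at 2.07 times the FPKM of LPIN3 untreated and at 5.33 times with ISOX. The genes of the phosphatase that activates lipins, CTDNEP1 and its subunit CNEP1R1, were listed at 36.3 and 43.5 FPKM and at 9.51 and 13.9 FPKM. None of the 4 expressed lipin regulators reached 1.5-fold, and their median log2 ratio was 0.23.

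DGAT1 (chromosome 8, from 144291588 to 144326919) was listed at 23.5 FPKM untreated and 28.3 FPKM with ISOX, a log2 ratio of 0.27 that was 0.06 above the median of all features. Its feature shares a locus with HSF1, listed at 37.4 and 39.5 FPKM, and their exons share 139 bases. Exons of DGAT1 also share 444 bases with AC233992.1, which has no feature under its name. DGAT2, the other enzyme of this step and unrelated in sequence, was listed at 9.87 FPKM untreated and 6.15 FPKM with ISOX, 1.60-fold lower and so short of the 2-fold threshold. DGAT1 was therefore listed at 2.38 times the FPKM of DGAT2 untreated and at 4.60 times with ISOX.

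**Figure D4:**
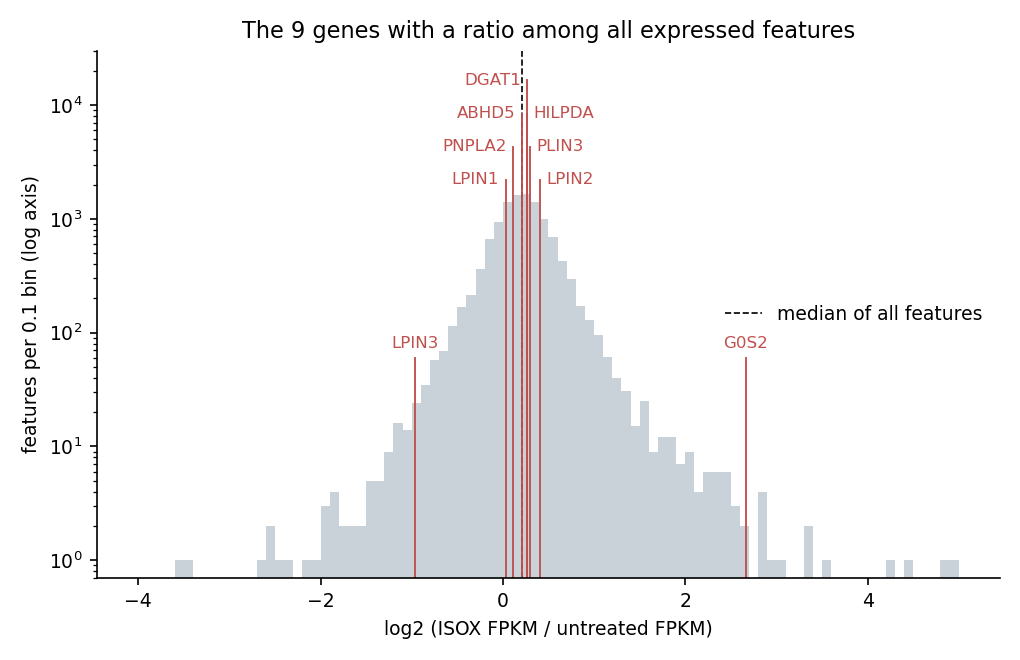
Histogram of log2 (ISOX FPKM / untreated FPKM) over the 11915 counted features in bins of 0.1 (log axis for the number of features), with the 9 lipid droplet genes that have a ratio as red lines and the median of all features, 0.21, as a dashed line. The height of a red line carries no value. G0S2 lies in the sparse right tail at 2.67 and LPIN3 in the left tail at -0.96, and the other 7 lie between 0.03 and 0.41.

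Upstream of DGAT1 and the lipins, the glycerolipid synthesis enzymes held a further gene past 2-fold. GPAT3, which adds the first acyl chain to glycerol-3-phosphate, was listed at 23.5 FPKM untreated and 52.7 FPKM with ISOX, 2.24-fold higher. Its log2 ratio was 1.17, and 0.96 after subtraction of the median, then short of 2-fold. GPAT3 held 57.6% of the summed FPKM of the glycerol-3-phosphate acyltransferases in untreated cells and 74.6% with ISOX, and GPAT4, the microsomal partner, held 33.6% and 19.3% at 13.7 and 13.6 FPKM. Of the 18 expressed enzymes on this list, 1 was at least 2-fold higher and none lower, with a median log2 ratio of 0.11. Over all counted features, 2.99% were at least 2-fold higher, 12.4% at least 1.5-fold higher and 2.25% at least 1.5-fold lower. At 1.5-fold, 3 enzymes of the list were higher and 2 lower. The others among them, named after their values were seen, were SOAT1, which esterifies cholesterol (1.96 and 3.89 FPKM), the acyltransferase AGPAT4 (2.07 and 3.49 FPKM), DGAT2, and the phosphatase gene PPAP2B (6.08 and 3.88 FPKM).

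Around PNPLA2, none of the 13 expressed other neutral lipid hydrolases reached 2-fold, and their median log2 ratio was 0.35. NCEH1, which hydrolyses cholesteryl ester, was listed at 40.5 FPKM untreated and 53.6 FPKM with ISOX, and ABHD12, a monoacylglycerol and lysophospholipid lipase, at 44.9 and 47.4 FPKM. PNPLA8, a mitochondrial and peroxisomal phospholipase named after its value was seen, was the 1 hydrolase past 1.5-fold, at 5.66 and 8.88 FPKM. At least 1.5-fold higher were 12.4% of all counted features. LIPE, the hormone-sensitive lipase that follows PNPLA2, was listed at 1.63 and 2.05 FPKM.

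The other droplet proteins likewise stayed within 2-fold, in 15 of 15 expressed genes, with a median log2 ratio of 0.22. AUP1, which lies on droplets and in the endoplasmic reticulum, was listed at 78.6 FPKM untreated and 88.7 FPKM with ISOX. The feature of BSCL2, the seipin of droplet assembly, also covers HNRNPUL2 and was listed at 56.8 and 61.7 FPKM. Past 1.5-fold were CIDEC, a droplet fusion protein (6.70 and 10.1 FPKM), and the GTPase gene RAB18 (13.5 and 20.6 FPKM). Both were named after their values were seen, and 12.4% of all counted features were at least 1.5-fold higher.

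Fatty acid supply and use gave further values. Among 13 expressed genes of fatty acid uptake and activation, none was at least 2-fold higher and 1 was lower, with a median log2 ratio of 0.46. This was SLC27A3, an acyl-CoA synthetase of the fatty acid transport family, at 3.15 FPKM untreated and 1.36 FPKM with ISOX. It was no longer past 2-fold with 1 FPKM added, and with a minimum mean of 5 FPKM it dropped out of the count. At 1.5-fold, 2 genes were higher, both named after their values were seen: ACSL1, a long-chain acyl-CoA synthetase gene (0.826 and 1.63 FPKM), and the lipoprotein receptor gene VLDLR (1.68 and 2.56 FPKM). None of the 21 expressed genes of fatty acid oxidation reached 2-fold, and their median log2 ratio was 0.36. ETFA, an electron carrier of beta-oxidation, was listed at 148 FPKM untreated and 197 FPKM with ISOX, and ACADVL, the very-long-chain acyl-CoA dehydrogenase, at 128 and 147 FPKM. The 3 genes of that list past 1.5-fold, named after their values were seen, were CPT1A, the carnitine acyltransferase that admits fatty acids to mitochondria (7.41 and 13.1 FPKM), ACADM, the medium-chain dehydrogenase (17.9 and 29.5 FPKM), and ETFDH, which takes up electrons from ETFA and its partner (8.26 and 12.5 FPKM). Over all counted features, 12.4% were at least 1.5-fold higher and 0.596% at least 2-fold lower, so the counts of higher genes in the uptake and oxidation lists were near that share. None of the 9 genes of cholesterol and fatty acid synthesis reached 1.5-fold, with SCD at 450 and 536 FPKM and FASN at 70.4 and 69.1 FPKM.

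G0S2, HILPDA and PLIN2 are known targets of PPAR nuclear receptors, so other targets of these receptors were set beside them. Of 9 expressed PPAR target genes, 2 were at least 2-fold higher and none lower, with a median log2 ratio of 0.39. PDK4, the kinase that shuts off pyruvate dehydrogenase, was listed at 6.20 FPKM untreated and 17.6 FPKM with ISOX, 2.83-fold higher. TXNIP, a regulator of glucose uptake, was listed at 97.8 and 217 FPKM, 2.22-fold higher, and was no longer past 2-fold once the median was subtracted. ANGPTL4, a secreted inhibitor of lipoprotein lipase and a further such target, was listed at 11.99 and 11.35 FPKM. The receptor PPARG itself was listed at 100.2 FPKM untreated and 79.5 FPKM with ISOX, and PPARA at 9.37 and 8.92 FPKM. PPAR targets were thus found at both higher and near-equal levels with ISOX. At 1.5-fold, 3 of the 9 targets were higher and none lower, the third being CPT1A (7.41 and 13.1 FPKM), named after its value was seen. Over all counted features, 2.99% were at least 2-fold higher and 12.4% at least 1.5-fold higher. Whether these receptors bear on the value of G0S2 was not tested.

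Among 17 expressed nuclear receptors and lipid regulators, 1 was at least 2-fold higher and none lower, with a median log2 ratio of 0.14. This was CEBPB, a transcription factor of adipocyte differentiation and of stress responses, at 7.92 FPKM untreated and 21.2 FPKM with ISOX, 2.68-fold higher. CEBPG, its partner, named after its value was seen, was listed at 15.3 and 29.6 FPKM, past 1.5-fold. Over all counted features, 2.99% were at least 2-fold higher and 12.4% at least 1.5-fold higher.

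HILPDA is also a hypoxia-inducible gene. Of 8 expressed genes of that kind, none was at least 2-fold higher and 2 were at least 2-fold lower, with a median log2 ratio of -0.14. Over all counted features, 2.99% were at least 2-fold higher and 0.596% at least 2-fold lower. NDRG1 was listed at 88.3 FPKM untreated and 31.6 FPKM with ISOX, and CA9, a carbonic anhydrase gene, at 201.5 and 84.3 FPKM. HILPDA had a log2 ratio of 0.27, where that of NDRG1 was -1.48 and that of CA9 was -1.26. Other genes of the list, named after their values were seen, lay nearer to HILPDA, with log2 ratios of 0.31 for the growth factor gene VEGFA, 0.06 for the histone demethylase gene KDM3A and 0.03 for ADM, the gene of adrenomedullin. EGLN3, a prolyl hydroxylase gene, was past 1.5-fold lower at 31.4 and 18.7 FPKM. At least 1.5-fold lower were 2.25% of all counted features. HIF1A, the gene of the oxygen-sensitive factor itself, was listed at 50.03 and 70.48 FPKM.

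**Figure D5:**
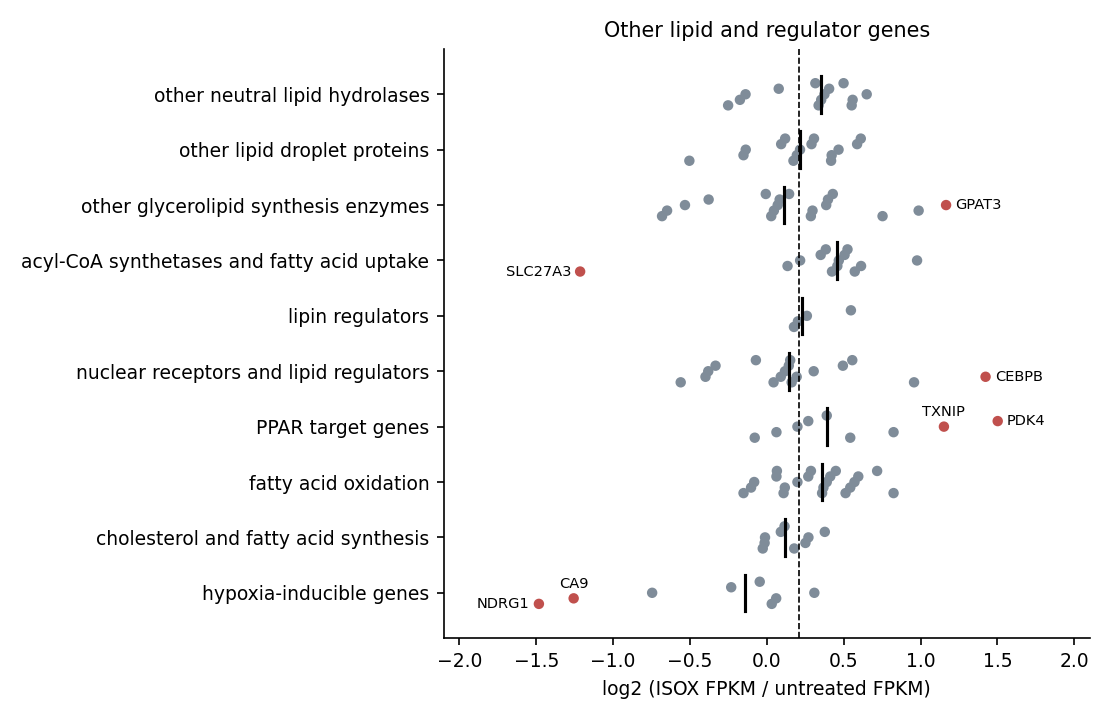
Log2 (ISOX FPKM / untreated FPKM) of the expressed genes of 10 lists around the lipid droplet set, 1 point per gene, with the list median as a black bar and the median of all counted features, 0.21, as a dashed line. Vertical scatter within a row carries no value. Genes past 2-fold are red and named: GPAT3, CEBPB, TXNIP and PDK4 on the right and SLC27A3, NDRG1 and CA9 on the left.

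The features with ratios closest to that of G0S2, by rank among those with a single gene name, were ATF3, ASNS and KRT16P1 just above and SEPP1, SPINK7 and SLC6A9 just below. Their log2 ratios spanned 2.84 to 2.51, from the 1 pair of values per gene. ASNS, the asparagine synthetase gene, was listed at 28.7 FPKM untreated and 201 FPKM with ISOX, and SEPP1, which encodes selenoprotein P, at 5.08 and 30.7 FPKM. The stress-induced factor gene ATF3 was listed at 0.927 and 6.66 FPKM, and SLC6A9, a glycine transporter gene, at 0.707 and 4.02 FPKM. SPINK7, a protease inhibitor gene, was listed at 0.357 and 2.07 FPKM. KRT16P1 is a keratin pseudogene, listed at 0.463 FPKM untreated and 6.48-fold higher with ISOX, and its reads may be shared with near-identical copies. Of these 6, ASNS and SEPP1 were the ones above 1 FPKM in untreated cells, as G0S2 was.

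Markers of other cell types were read in the same way, since droplet genes are typical of adipocytes and macrophages. Of the 7 adipocyte markers, CIDEC and LIPE passed the filter, ADIPOQ and LEP were listed at 0 in both groups, and FABP4 was listed at 0 untreated and 0.818 FPKM with ISOX. Their summed level was 8.86 FPKM untreated and 14.03 FPKM with ISOX, and CIDEC made up most of it. Of the 6 macrophage and leukocyte markers, CD14 was listed at 2.68 and 7.02 FPKM, past 2-fold, and CD68, a lysosomal protein gene, at 20.1 and 26.2 FPKM, while CD163 and MARCO were listed at 0 and PTPRC at 0.00579 and 0.0118 FPKM. Their sum was 22.8 FPKM untreated and 33.3 FPKM with ISOX. The 5 hepatocyte markers summed to 0.0192 and 0.0460 FPKM. The 5 acinar and islet markers summed to 1.11 and 1.54 FPKM, and the one that passed the filter, INS, shares its feature with IGF2. The 8 ductal epithelial markers all passed the filter and summed to 6527 FPKM untreated and 7932 FPKM with ISOX, with KRT7 (844 and 1451 FPKM) past 1.5-fold. Whether these markers bear on the values of G0S2 and LPIN3 was not tested.

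Transcript length enters every FPKM value. The length of a gene was taken here as the median over all its GENCODE transcripts, whether expressed or not. It need not be the length behind the FPKM of that gene. A length was known for 10855 of 11423 named features (95.0%), and these were divided into 10 classes of length after the values were seen. In the class of G0S2, a gene with a median transcript length of 866 bases, the median log2 ratio was 0.22 and 2.49% of features were at least 2-fold higher. In the class of LPIN3, a gene with a median transcript length of 808 bases, the median log2 ratio was 0.22 and 0.829% were at least 2-fold lower. Over all 10 classes the median log2 ratio lay between 0.16 and 0.26. The part of transcript length in the values of G0S2 and LPIN3 was not tested.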

How the data were processed

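RNA of CD18/HPAF cells was extracted with a mirVana kit, prepared with a TruSeq kit and sequenced as paired reads by the authors. Per the labels, Bowtie, TopHat, Cufflinks and Cuffdiff were used with build hg38, with versions, strand setting and filters not given in the sources used here. FPKM values were deposited by the authors, pooled into 1 value per gene and group (12 untreated and 12 ISOX samples, grouped by title), so their depth and replicate spread are unknown and no test was computed from them here. The deposited table also holds the authors' own log2 fold changes, test statistics, p-values, q-values and significance calls, which were not used. The unit and the pooling were read from the table's header and values.

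Ratios were computed from the pooled FPKM for features with a mean of at least 1 FPKM and neither value at 0, which left out 49 features listed at 0 in 1 group. Where a symbol had several features, the one with the highest mean was used. Starts in the table count from 0 and were converted to count from 1. Features with several gene names cannot be divided between them. The members and the 20 gene lists, markers included, were chosen with earlier results of these data known. Named genes were all 10 members and, per list, up to 4 genes past 2-fold with the largest ratio, or the 2 with the highest mean where none was, plus the 3 features on either side of G0S2 by ratio. Other genes are said to be named after their values were seen. Alternatives were a 1.5-fold threshold, 0.1 or 1 FPKM added, centring on the median, and a mean in place of a median. Further ones were no minimum mean or a minimum mean of 5 FPKM. Features with a value at 0 were left out under all of them. Transcript lengths and exon overlaps came from GENCODE release 29, and promoter sequences from RefSeq (GRCh38.p14). HILPDA, PNPLA2, PLIN3, LPIN1 and LPIN2 also share exon bases with GENCODE genes that have no feature under their names. Reads of those stretches cannot be told apart either. The counting step was tested on simulated data. Python 3.11.15 was used with numpy 2.4.6, pandas 2.3.3 and matplotlib 3.10.9. Measurements other than this RNA sequencing were not analysed here.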

Additional observations from a re-analysis of the deposited data

How the results depend on the processing

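The count of 1 higher gene in the lipid droplet set, G0S2, was the same under all 6 alternatives. The count of lower genes was 0, and it was 1 at 1.5-fold and 1 after centring on the median, LPIN3 in both cases. It stayed 0 with 0.1 or 1 FPKM added and without a minimum mean. It also stayed 0 with a minimum mean of 5 FPKM, at which LPIN3 and LPIN1 drop out of the count. The median log2 ratio of the set was 0.27, between 0.26 and 0.37 under the alternatives other than centring, and 0.06 after centring. The change in the ratio of G0S2 to PNPLA2 was 5.48-fold to 5.89-fold, and the share of LPIN3 among the lipins with ISOX was 13.6% to 16.1%. Over all features, the 356 higher ones became 333 with 0.1 FPKM added, 222 with 1 FPKM added and 1474 at 1.5-fold. They became 191 after centring, 212 at a minimum mean of 5 FPKM and 1123 without a minimum mean. In the same order, the 71 lower ones became 65, 36, 268, 139, 28 and 654. Of 180 counts of the other gene lists recomputed in this way, 158 stayed within 1.5 times the count reported and 22 did not. No paired analysis was possible because the table holds 1 pooled value per group. A limma fit on all 24 samples, planned with no block in case values per sample were available, was not run for the same reason. Depth is unknown, so how precise the low values of LPIN1, LPIN3 and PLIN2 are cannot be said.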
